A study of Mus musculus and Rattus norvegicus with 6 samples.

Results

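The enzymes described here are 9 genes of amino acid breakdown in liver: Sds, Tat, Oat, Hal, Gls2, Tdo2, Hpd, Aass and Prodh2. They were taken as a named set, and every probe set annotated to one of these symbols alone was used: 9 probe sets for 9 of 14217 genes on the rat array, and 9 probe sets for 7 of 18193 genes on the mouse array, where Sds and Gls2 were not analysed here. Over both species they were 9 of 19924 genes. Liver RNA came from male animals aged 20 weeks, 6 hours after an intraperitoneal injection. The rat groups were Lepmkyo/Lepmkyo given recombinant murine leptin, Lepmkyo/Lepmkyo given saline and wild-type (WT) littermates given saline, on an F344/NSlc background. The mouse groups were Lepob/Lepob given leptin, Lepob/Lepob given saline and WT littermates given saline, on a C57/BL6J background. Both mutations remove functional leptin in every tissue and from birth, so the mutants were obese animals that had never been exposed to their own leptin. The rat labels conflict over the genotype: the source field of the mutant rats names Lepob, the mouse allele, and their titles read Lepmyo/Lepmkyo. Lepmkyo was taken from the sample descriptions and the series design. Feeding state and hour of collection are not given in the sources used here.

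Each group was 1 array, and the labels do not say how many animals it represents. No replicate spread could be measured, so no p-value is given, and higher and lower below compare the signals of 2 arrays. The only error that could be measured was the disagreement between probe sets of the same gene. For genes with signals of at least 1000 on both arrays, its SD on the log2 ratio was 0.29 in rats (310 genes) and 0.29 in mice (1038 genes) for saline-treated mutants against WT, and 0.14 and 0.11 for leptin against saline. That SD holds nothing of the variation between animals. Array medians ranged from 93.6 to 99.3 in rats and from 77.0 to 91.9 in mice. The median over the 3 arrays of a species, 97.0 in rats and 82.7 in mice, served as a signal floor, and a gene was called at a 2-fold difference. All member signals lay above the floor: the lowest was 526.4 in rats, 5.43 times the floor, and 3554.1 in mice, 43.0 times the floor. Rat Sds and Tat were below 1000 on both mutant arrays, so the SD of bright genes does not cover them. Without the limit of 1000 the rat SD was 0.44 for saline-treated mutants against WT and 0.25 for leptin against saline. The liver label was checked against hepatocyte markers other than Tat, whose lowest signal on any array was 8197.1 in rats and 10563.5 in mice, both for Asgr1.

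Amino acids that are not built into protein are broken down mainly in hepatocytes, where their nitrogen goes to urea and their carbon to glucose, ketone bodies or oxidation. Many of the enzymes for this are regulated through their mRNA: fasting, glucagon and glucocorticoids raise them, and insulin lowers several of them. Sds deaminates serine to pyruvate, Tat removes the amino group of tyrosine, Oat converts ornithine to glutamate semialdehyde, Hal deaminates histidine and Gls2 releases ammonia from glutamine. Tdo2 opens the ring of tryptophan, Hpd follows Tat in tyrosine breakdown, Aass starts lysine breakdown and Prodh2 oxidises hydroxyproline. In rodent liver Sds, Hal and Gls2 are known as enzymes of the periportal zone, where blood enters the lobule, and Oat as an enzyme of the pericentral zone, where blood leaves it.

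In saline-treated rats, 4 of the 9 enzymes were at least 2-fold lower in Lepmkyo/Lepmkyo liver than in WT liver and 0 were higher by that much. The 4 were Sds, Tat, Oat and Hal. Of all 9817 measured rat genes, 1.45% were 2-fold or more lower and 2.99% 2-fold or more higher in the same comparison, 4.44% in all. The members were chosen with earlier results of these data known, so their count beside this share is a description only. The median log2 ratio of the 9 enzymes was -0.55, against 0.04 for all measured genes. The group was uneven: Gls2 and Hpd were lower by less than 2-fold, and Tdo2, Aass and Prodh2 differed little between the arrays.

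Sds had a signal of 526.4 in leptin-treated Lepmkyo/Lepmkyo rats and 743.6 in saline-treated Lepmkyo/Lepmkyo rats, against 5526.5 in saline-treated WT rats. Both mutant arrays were far below the WT array. The log2 ratio of saline-treated mutant over WT was -2.89, a 7.43-fold lower signal and the fourth lowest ratio of all measured genes. Tat, the first and rate-limiting step of tyrosine breakdown, had 960.5 in leptin-treated mutants and 849.7 in saline-treated mutants, against 5897.2 in WT. Its log2 ratio of -2.80, or 6.94-fold lower, was the fifth lowest. For both enzymes the saline-treated mutant kept a small part of the WT signal, 13.5% for Sds and 14.4% for Tat.

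Oat had 4505.3 in leptin-treated mutants and 3160.7 in saline-treated mutants, against 14715.2 in WT rats. The saline-treated mutant was 4.66-fold lower than WT (log2 -2.22), the 12th lowest ratio. Hal, which commits histidine to degradation, had 2398.8 and 3327.0 in leptin-treated and saline-treated mutants, against 7456.6 in WT. It was 2.24-fold lower in the saline-treated mutant (log2 -1.16, 90th lowest), just past the 2-fold threshold. Gls2, the liver-type glutaminase, was the nearest member that did not reach it, with 7217.7 and 6140.1 in the leptin-treated and saline-treated mutants against 9019.3 in WT, a 1.47-fold lower signal (log2 -0.55). Each of these ratios was larger in size than the probe-set SD, both 0.29 for bright genes and 0.44 for all genes. Those of Sds, Tat, Oat and Hal were below -0.82, the value that bounds the lowest 2.5% of all genes. Each rat enzyme was read by a single probe set, so no second probe set of the gene bears on these values.

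The other 4 enzymes were within 1.29-fold of WT in saline-treated mutant rats. Tdo2 had 37098.9 in leptin-treated mutants and 36128.9 in saline-treated mutants, against 35581.6 in WT, a log2 ratio of 0.02 for saline. Hpd had 38157.8 and 33765.5 against 43395.0 in WT, and was 1.29-fold lower (log2 -0.36) in the saline-treated mutant. Both of these signals lie near the top of the scale, since the brightest probe set of a rat array read between 49105.4 and 54791.5, and whether the ratios are compressed there was not tested. Aass had 16911.5 and 15324.9 against 14665.6 in WT (log2 0.06 for saline), and Prodh2 had 7978.0 and 8048.8 against 7467.3 (log2 0.11). The saline ratios of Tdo2, Aass and Prodh2 were smaller in size than the probe-set SD.

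**Figure D1:**
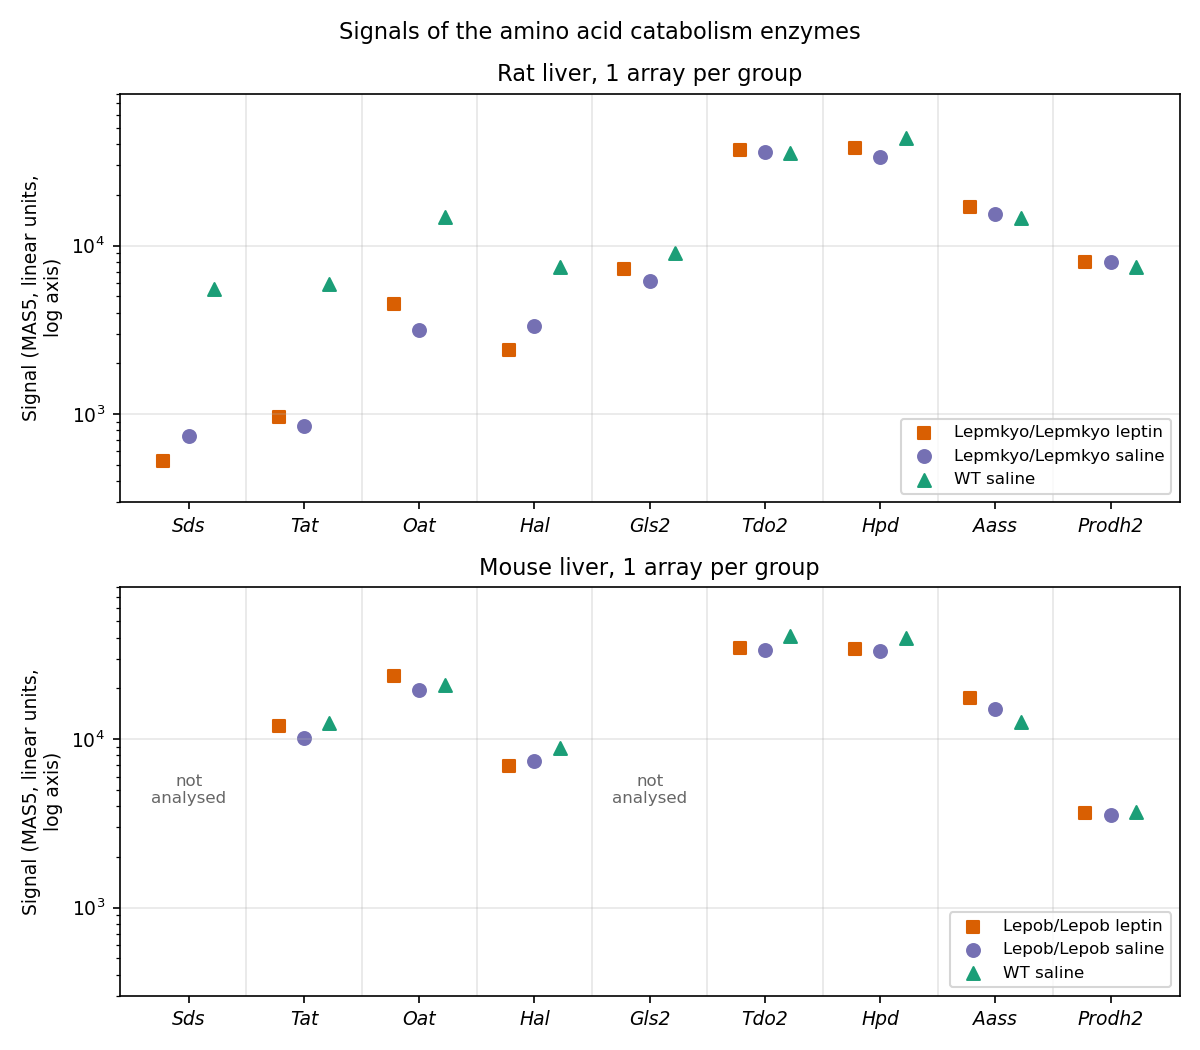
Signal of each enzyme (MAS5 units, log axis) on the 3 rat arrays and the 3 mouse arrays, 1 point per array: squares are leptin-treated mutants, circles saline-treated mutants and triangles saline-treated WT. Both mutant rat points of Sds, Tat, Oat and Hal lie below the WT point, by 7.43-, 6.94-, 4.66- and 2.24-fold in the saline-treated mutant, whereas the mouse points of each enzyme lie close together.

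The proximal promoters of Tat, Oat and Hal are shown because these were the enzymes at least 2-fold lower in the mutant rat for which a mouse sequence could be read. They are mouse sequences, the 250 bases before the annotated start in RefSeq's GRCm38.p6 assembly, printed 5′ to 3′ along the gene's strand, while the difference in signal was seen in rats. They lie at chr8:109990186-109990435 on the plus strand for Tat, at chr7:132576399-132576648 on the minus strand for Oat and at chr10:93488518-93488767 on the plus strand for Hal. Capitals mark the word CCAAT or, where the word is on the opposite strand, ATTGG.
Tat: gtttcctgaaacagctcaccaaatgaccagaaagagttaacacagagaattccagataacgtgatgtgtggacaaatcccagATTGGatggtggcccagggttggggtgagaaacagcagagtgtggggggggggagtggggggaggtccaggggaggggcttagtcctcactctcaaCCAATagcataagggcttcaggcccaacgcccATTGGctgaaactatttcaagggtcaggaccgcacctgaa
Oat: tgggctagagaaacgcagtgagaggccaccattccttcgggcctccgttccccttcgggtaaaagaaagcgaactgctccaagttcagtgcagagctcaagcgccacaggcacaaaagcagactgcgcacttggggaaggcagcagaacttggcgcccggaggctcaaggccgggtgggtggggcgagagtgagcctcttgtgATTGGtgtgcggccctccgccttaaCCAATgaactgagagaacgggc
Hal: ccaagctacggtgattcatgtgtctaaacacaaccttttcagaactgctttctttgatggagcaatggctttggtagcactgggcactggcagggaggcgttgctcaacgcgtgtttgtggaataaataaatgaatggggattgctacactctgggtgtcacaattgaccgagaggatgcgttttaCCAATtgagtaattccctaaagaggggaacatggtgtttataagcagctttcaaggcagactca

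The Tat window held CCAAT 3 times, the Oat window 2 times and the Hal window once. Of the 7 member promoters with a sequence (all members but Sds and Gls2), 6 held the word on either strand, as did 33.8% of the 32851 promoters in the table. CCAAT was added after these sequences had been seen, so its count among the members is a description only. Words of factors of fasting and glucocorticoid response were searched as well. The short cyclic-AMP response core TGACG, which the full element contains, was found only in the Aass promoter among the 7 (17.8% of all promoters), where no other word of the list overlapped it. The full element TGACGTCA (1.55% of all promoters), the glucocorticoid receptor word AGAACA (16.1%), the FOXO word GTAAACA (3.17%), the C/EBP word TTGCGCAA (0.164%) and the D-box TTATGTAA (0.819%) had no match in the 7 windows. Both strands were searched, and no match says only that these letters are not within these 250 bases.

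In mice, none of the 7 measured enzymes reached 2-fold in either direction between saline-treated Lepob/Lepob and WT liver, where 4.46% of 11956 genes were higher and 3.71% lower by that much, 8.16% in all. The largest difference among them was 1.24-fold. Tat had 11907.6 in leptin-treated mutants and 10092.7 in saline-treated mutants, against 12472.1 in WT mice, so the saline-treated mutant was 1.24-fold lower (log2 -0.31). Oat had 23620.7 and 19640.5 in leptin-treated and saline-treated mutants, against 20891.3 in WT (log2 -0.09 for saline). Hal had 6921.0 and 7428.7, against 8871.4 in WT (log2 -0.26). The 3 mouse arrays were thus close together for Tat, Oat and Hal, the enzymes past 2-fold in the mutant rat that were measured in both species.

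The remaining mouse enzymes differed as little. Hpd had 34413.7 in leptin-treated mutants and 33554.9 in saline-treated mutants, against 40089.5 in WT (log2 -0.26 for saline). Aass was the only member whose brightest probe set, as deposited, was higher in the saline-treated mutant, at 17492.8 and 15059.2 in leptin-treated and saline-treated mutants, against 12683.4 in WT (log2 0.25). Prodh2 had 3640.2 and 3554.1, against 3683.2 in WT (log2 -0.05). For Tdo2 the probe sets disagreed in sign. The brightest had 34565.0 and 33670.4 in leptin-treated and saline-treated mutants against 40766.9 in WT (log2 -0.28 for saline), and the other two gave a log2 ratio of 0.21 each. The direction for mouse Tdo2 is therefore not settled. The median log2 ratio of the 7 enzymes was -0.26 against -0.03 for all genes as deposited, and -0.04 against 0.04 after quantile normalization. Under both, 6 of the 7 were below 0. Scaling to a common median raises the ratio of every bright mouse gene in this comparison alike. It left 4 of the 7 enzymes below 0, with a median of -0.00 against 0.22 for all genes. Of 11 hepatocyte markers other than Tat, 9 were below 0 as deposited (median -0.36). After quantile normalization 5 were below 0 (median 0), and with a common median 8 (median -0.10).

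The enzymes measured in both species could be set side by side as the rat log2 ratio minus the mouse log2 ratio for saline-treated mutant against WT. This difference was -2.49 for Tat, so that the rat ratio was 5.62-fold below the mouse ratio, -2.13 for Oat (4.38-fold) and -0.91 for Hal (1.88-fold). It was 0.30 for Tdo2, 0.16 for Prodh2, -0.11 for Hpd and -0.18 for Aass. The Tdo2 value rests on the brightest mouse probe set (log2 -0.28). The other mouse probe sets gave 0.21 each, above the rat ratio of 0.02, so the sign for Tdo2 is not settled. With 1 array per group in each species, these differences between species were not tested. Strain, allele and array design differ along with species and cannot be told apart from it.

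**Figure D2:**
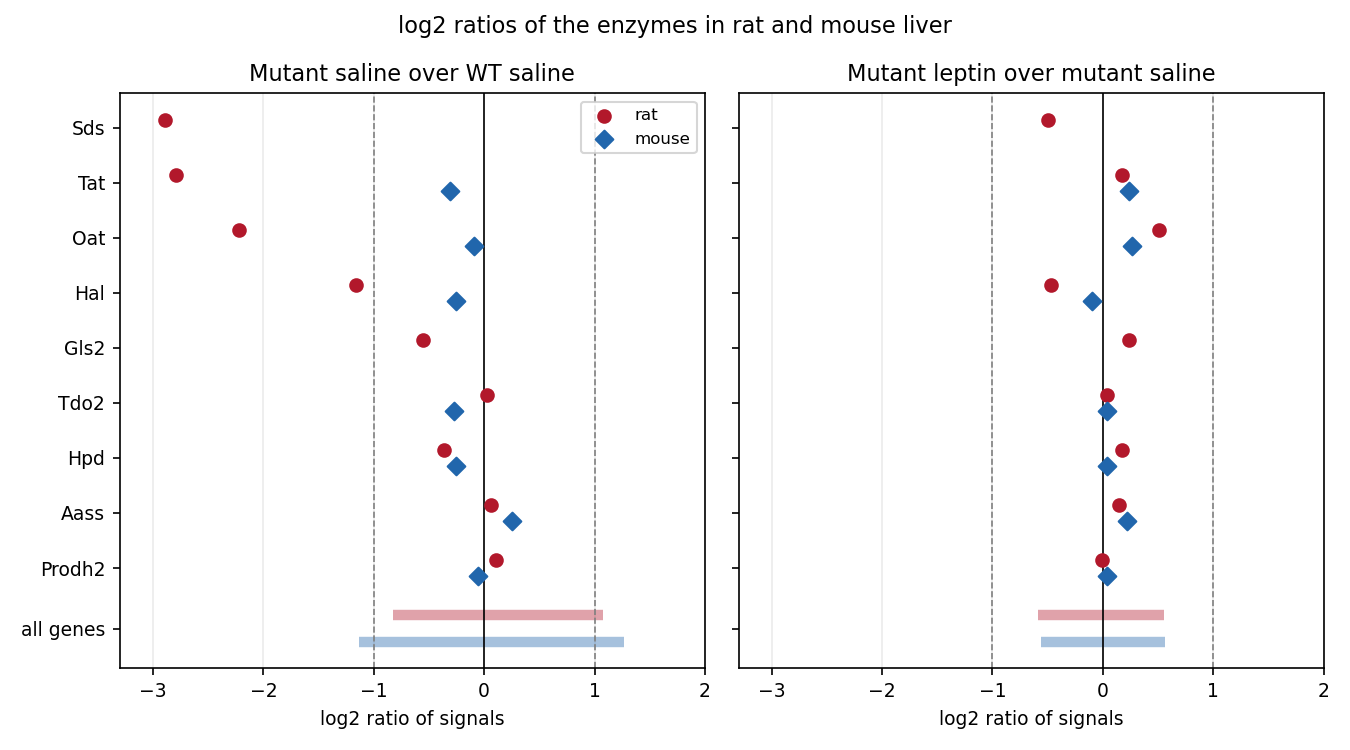
log2 ratios of each enzyme in rats (circles) and mice (diamonds), for saline-treated mutant over WT on the left and leptin-treated over saline-treated mutant on the right. Dashed lines mark 2-fold, and the bars in the bottom row span all genes without the 2.5% at each end (rat -0.82 to 1.08 on the left). Tat and Oat lie at -2.80 and -2.22 in rats and at -0.31 and -0.09 in mice, and no point passes 2-fold after leptin.

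At 6 hours after leptin, none of the enzymes differed by 2-fold from saline in either species. In Lepmkyo/Lepmkyo rats 0 of 9 were called in either direction, where 0.237% of 9705 genes were higher and 0.278% lower by 2-fold, 0.515% in all. Oat had the largest ratio, 1.43-fold higher in leptin-treated than in saline-treated mutants (4505.3 against 3160.7, log2 0.51). Sds and Hal went the other way, 1.41-fold (526.4 against 743.6, log2 -0.50) and 1.39-fold (2398.8 against 3327.0, log2 -0.47) lower after leptin. Tat was 1.13-fold higher (log2 0.18) and Gls2 1.18-fold higher (log2 0.23). The ratios of Oat, Sds and Hal exceeded the probe-set SD over all genes, 0.25, and those of the other members did not. Gls2, Hpd and Aass exceeded only the SD of bright genes, 0.135. All member ratios lay within -0.59 to 0.55, the range of all genes without the 2.5% at each end.

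The leptin ratios of the other rat enzymes were 0.18 for Hpd, 0.14 for Aass, 0.04 for Tdo2 and -0.01 for Prodh2 on the log2 scale. The median over the 9 was 0.14, against 0.01 for all genes, with 6 above 0 (5 after quantile normalization and 7 with a common median). Hepatocyte markers other than Tat were similar in the same comparison, with all 12 above 0 and a median of 0.13. After quantile normalization the median was 0.05 for the enzymes and 0.03 for these markers, of which 9 were above 0. In Lepob/Lepob mice 0 of 7 were called, where 0.182% of 11536 genes were higher and 0.243% lower by 2-fold, 0.425% in all. The largest mouse ratio was again that of Oat, 1.20-fold higher (23620.7 in leptin-treated against 19640.5 in saline-treated mutants, log2 0.27). Tat was 1.18-fold and Aass 1.16-fold higher (log2 0.24 and 0.22), and Hal was 1.07-fold lower (log2 -0.10). Oat and Tat were thus higher and Hal lower after leptin in both species, each by less than 1.5-fold. The mouse Hal ratio was smaller in size than the probe-set SD of 0.11. By the brightest probe set as deposited, Tdo2, Hpd and Aass were also higher in both species, and Prodh2 differed in sign. The ratios of mouse Tdo2, mouse Hpd and rat Tdo2 were only 0.04 each, and each changed sign under some alternative processing. Of all 8067 genes measured in both species, 54.0% had the same sign.

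The leptin-treated mutant rat still differed from WT in the same 4 enzymes. Of the 9, 4 were at least 2-fold lower and 0 were higher by that much, where 1.61% of 9742 genes were lower and 2.83% higher, 4.44% in all. Leptin-treated mutants were 10.5-fold lower than WT for Sds, 6.14-fold for Tat, 3.27-fold for Oat and 3.11-fold for Hal (log2 -3.39, -2.62, -1.71 and -1.64). As a share of the WT signal, Oat stood at 30.6% in the leptin-treated and 21.5% in the saline-treated mutant, and Hal at 32.2% in the leptin-treated and 44.6% in the saline-treated mutant. This comparison shares its WT array with the saline comparison and its leptin array with the leptin comparison, so it is no separate evidence. In mice 0 of 7 enzymes differed by 2-fold between leptin-treated mutants and WT (3.98% of 11958 genes were higher and 3.46% lower, 7.44% in all), and the largest difference was that of Aass, 1.38-fold higher (log2 0.46).

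Other enzymes of amino acid breakdown were read from lists of 68 genes without the members. Like the members, these lists were chosen with earlier results known, so the counts are a description only. In saline-treated rats 57 were measured, of which 1 was at least 2-fold higher in the mutant and 0 were lower by that much. The 1 was Csad, which makes the taurine precursor hypotaurine, with 8959.4 in leptin-treated and 7736.5 in saline-treated mutants against 3567.8 in WT (2.17-fold higher for saline). The median log2 ratio of these genes was -0.00, with 28 above and 29 below 0. In mice 58 were measured, of which 2 were higher and 3 lower. Gpt2, the mitochondrial alanine transaminase, was 3.81-fold higher and Dhtkd1, of lysine breakdown, 2.19-fold higher. Kyat1 was 3.30-fold, Kyat3 2.06-fold and Kynu 2.02-fold lower, the first pair being kynurenine transaminases and the last kynureninase. With a common median 4 were higher and 1 lower, and Kyat3 and Kynu no longer reached 2-fold (log2 -0.78 and -0.76), while quantile normalization gave 2 higher and 4 lower. After leptin 0 of 57 of these genes passed 2-fold in either species.

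The steps next to the members can be followed by pathway in the rat. Below Tat and Hpd in tyrosine breakdown, Hgd had 10840.5 in leptin-treated and 10740.3 in saline-treated mutants against 13521.1 in WT (log2 -0.33 for saline), and the saline ratios of Gstz1 and Fah were -0.07 and 0.07. Below Hal in histidine breakdown, Uroc1 and Ftcd had log2 ratios of 0.06 and 0.04. None of these later enzymes reached 2-fold. Hpd (log2 -0.36) and Hgd were lower too, each by slightly more than the probe-set SD of 0.29. Of the 3 listed histidine genes, 2 had a rat probe set. Beside Sds, its relative Sdsl had a ratio of 0.22 and Agxt, another enzyme that uses serine or glyoxylate, -0.55. Beside Oat, Gls2 and Prodh2, the ratios were -0.62 for the proline oxidase Prodh, -0.47 for the glutamate dehydrogenase Glud1, -0.19 for the glutamine synthetase Glul and -0.03 for Aldh4a1. These are the brightest probe sets: the others of Glul reached -0.63, and the other of Glud1 gave -0.11. In mice the saline ratios of the brightest probe sets were -0.16 for Hgd, 0.15 for Fah, 0.36 for Uroc1, 0.52 for Prodh and -0.05 for Glud1.

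**Figure D3:**
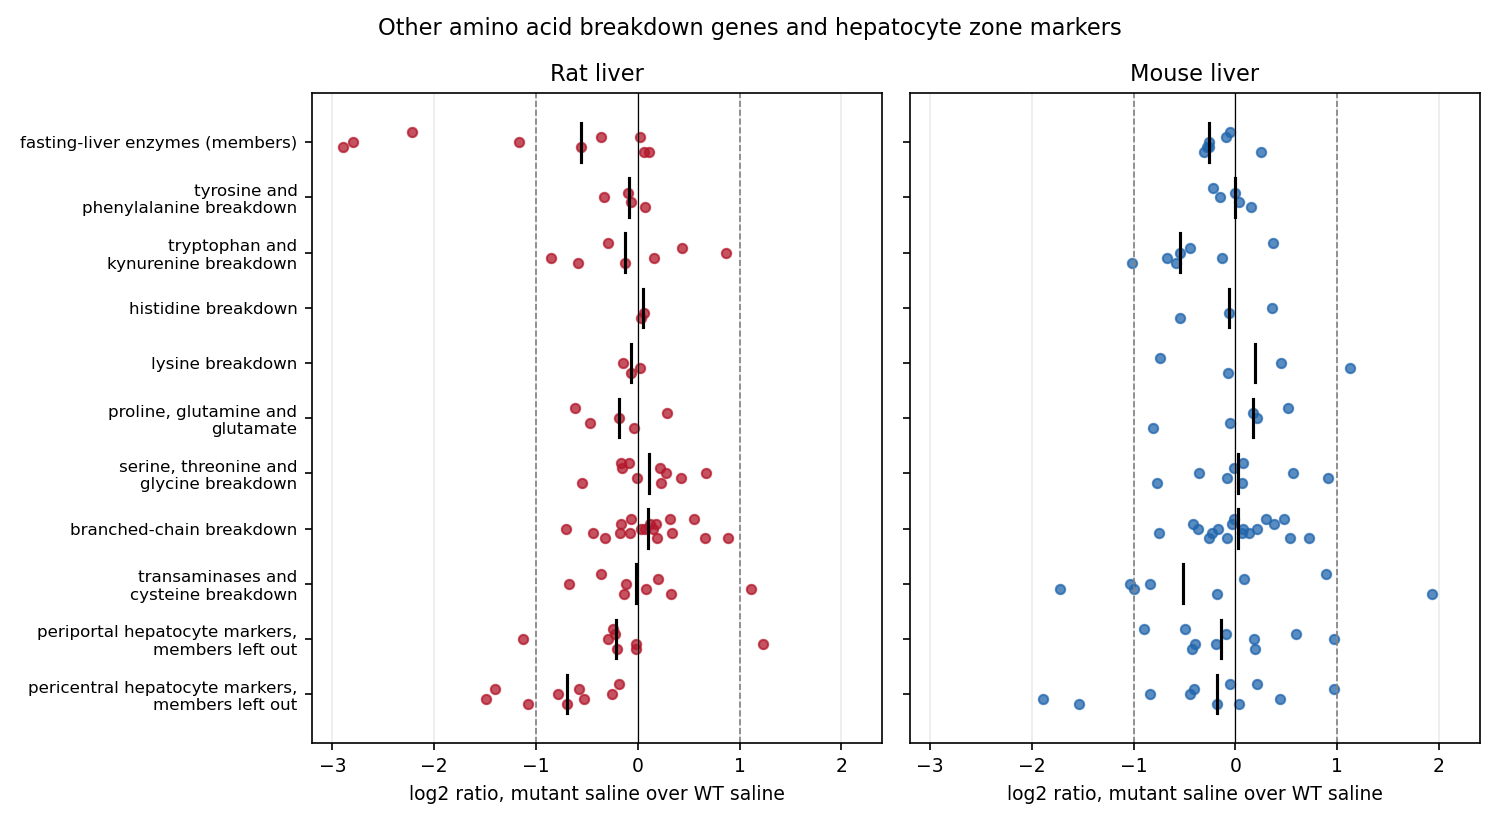
log2 ratios of saline-treated mutant over WT for the enzymes (top row), the other amino acid breakdown genes by pathway and the zone markers, in rats (left) and mice (right). Each point is a gene, black bars are medians and dashed lines mark 2-fold. In rats the 4 lowest members lie left of every other breakdown gene, whereas in mice the members lie within 1.24-fold and some other breakdown genes pass 2-fold.

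Zone and cell markers were read beside the members. In the mutant rat given saline, all 9 measured pericentral markers other than Oat had ratios below 0 under the 3 scalings tried, with a median of -0.70 and a summed signal of 63127.9 in the mutant against 96632.4 in WT. Of these, 3 were at least 2-fold lower: Cyp1a2 by 2.82-fold, Tbx3 by 2.65-fold and Axin2 by 2.11-fold. Glul, the defining pericentral enzyme, had 5630.6 in the saline-treated mutant against 6409.7 in WT by its brightest probe set (log2 -0.19). The saline ratios of its 3 probe sets ran from -0.63 to -0.19. Of 8 periportal markers other than Sds, Hal and Gls2, Hsd17b13 was 2.34-fold higher and Asl 2.19-fold lower in the saline-treated mutant, and the median was -0.21. As deposited 7 of the 8 were below 0, against 5 after quantile normalization and 5 with a common median. In mice 2 of 11 pericentral markers were lower (Cyp1a2 3.72-fold, Gulo 2.89-fold) and 0 of 10 periportal markers were called. Under a common median 1 marker of each mouse list was higher, as was 1 pericentral marker after quantile normalization.

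Of 12 rat hepatocyte markers other than Tat, 0 were called, with a median of -0.14 and a summed signal of 411998 in the saline-treated mutant against 458996 in WT. All 12 were below 0 as deposited and with a common median, and 7 were after quantile normalization. Of 10 stellate cell and matrix markers 4 were at least 2-fold higher, with sums of 8634.7 in the mutant against 3000.3 in WT, and of 8 Kupffer cell markers 1 was, with sums of 15715.5 against 12574.1. Of 3 red blood cell markers 1, the globin Hbb, was higher (18750.1 in the mutant against 8301.4 in WT), and the list summed to 19198.6 against 8639.4. Of the 5 endothelial, 3 bile duct, 2 neutrophil and 1 lymphocyte markers measured, 0 were 2-fold apart. A further 2 bile duct, 2 neutrophil and 5 lymphocyte markers were under the floor on both arrays. Of 2 adipocyte markers above the floor Fabp4 was higher (784.8 against 57.7 in WT), while the defining adipocyte genes Adipoq, Lep and Plin1 were under the floor on all 3 rat arrays. In mice 0 of 11 hepatocyte markers were called and their sum was 398717 in the mutant against 496665 in WT. In the same mouse comparison 4 of 11 Kupffer cell, 2 of 6 neutrophil, 1 of 7 endothelial and 1 of 1 adipocyte markers were at least 2-fold higher. Of 11 stellate cell and matrix markers 0 were, against 4 with a common median. Lower by 2-fold were 1 of 1 red blood cell and, except with a common median, 1 of 3 bile duct markers. Clock genes also differed between the arrays: all 9 measured rat genes of the PER and DBP phase were above 0 in the saline-treated mutant, with a median of 0.54. The 5 genes of the BMAL1 phase were mixed, with 2 above and 3 below 0, among them Arntl at -0.83 and Npas2 at 0.48. The output gene Dbp had 1087.4 in the mutant against 543.5 in WT rats, and was 24.7-fold higher in the mouse mutant. In mice 7 of 9 measured genes of the PER and DBP phase were at least 2-fold higher in the saline-treated mutant. Of the 5 mouse genes of the BMAL1 phase 3 were at least 2-fold lower (2 with a common median), with Arntl 4.40-fold lower. The part of zone, cell composition and hour of collection in the enzyme ratios was not tested, and in whole liver fewer cells of a type cannot be told apart from less RNA per cell.

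Genes whose pattern was most like that of a called member were found among 8067 genes measured in both species, by Euclidean distance over 4 log2 ratios (genotype and leptin in each species). Those nearest to Tat were Slc25a45 (distance 0.540), Cux2 (0.645) and its fellow member Oat (0.701). Slc25a45 had log2 ratios of -2.56 for saline-treated mutant over WT and 0.65 for leptin over saline in rats, and of -0.42 and 0.19 in mice. Nearest to Oat were Cux2 (0.434), Slc25a45 (0.498) and Rpl39 (0.595), and nearest to Hal were Herc6 (0.366), Taf15 (0.377) and Slc6a6 (0.413).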

How the data were processed

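Liver total RNA, isolated with Trizol per the labels' protocols, was measured on Affymetrix arrays, with 3 arrays per species and 1 per group. The deposited values are linear signal intensities made by the authors with MAS5, per the submitters' processing notes; no version is given. Their trimmed mean, leaving out 2% at each end, was between 496 and 497 on every array. The precision is limited by the number of arrays.

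Symbols came from the platform annotation. On the mouse array 34945 of 45037 probe sets had 1 symbol, 932 several and 9160 none, and 34741 were updated through gene identifiers to GRCm38.p6. On the rat array 20826 of 31042 had 1 symbol, 436 several and 9780 none. Those without exactly 1 symbol were not used.

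A gene was read by its brightest probe set and was measured if 1 of the 2 arrays reached the floor. Values were raised to the floor, and a log2 ratio was called at 2-fold. No test was possible. The calculation was tested on simulated arrays. Alternatives were quantile normalization, a common array median, a lower floor (25th percentile), a higher one (75th), log2(signal + floor), the median over probe sets, and leaving out probe sets that bind several transcripts. Named genes were all members, up to 4 of the largest 2-fold ratios per list whose other probe sets were not 1.5-fold the other way, the 3 nearest genes of each called member, and fixed regulators, clock genes and zone markers. Genes of steps adjoining a member, Asgr1, the adipocyte genes under the floor, Npas2, Afmid and Sik1 were named after their values were seen. The members and lists were chosen with earlier results of these data known. Python 3.11.15, pandas 2.3.3, numpy 2.4.6 and matplotlib 3.10.9 were used. The leptin dose, written as 1 microg/mg in the series design, is not interpreted here.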

Additional observations from a re-analysis of the deposited data

Results flagged for a closer look

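Among 91 genes of the breakdown, transporter and regulator lists and the members, 3 were at least 1.5-fold apart in opposite directions in the saline-treated mutants of the 2 species, and 0 of these were members. The share of all genes apart in this way was not computed, so these counts are a description only. With 1 array per group these differences between species were not tested. Csad, which makes hypotaurine, had 7736.5 in mutant against 3567.8 in WT rats and 3401.3 in mutant against 6796.3 in WT mice, a rat minus mouse log2 difference of 2.12. Afmid, which follows Tdo2 in tryptophan breakdown, had 3670.1 in mutant against 2012.1 in WT rats and 1661.1 in mutant against 2648.1 in WT mice, a difference of 1.54. Sik1, a kinase induced by cyclic AMP, had 319.0 in mutant against 622.8 in WT rats and 278.5 in mutant against 137.6 in WT mice, a difference of -1.98.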

How the results depend on the processing

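Each member ratio was recomputed under 7 alternatives, giving 336 values for 48 ratios. Sds, Tat, Oat and Hal were at least 2-fold lower in saline-treated mutant than in WT rats under all 8 settings, at log2 -2.90 to -2.74, -2.82 to -2.66, -2.22 to -2.18 and -1.16 to -1.14. The counts of called members did not move under any alternative. Of the 48 ratios, 11 changed sign under some alternative, all of 0.28 or less in size, and 2 moved by more than the probe-set SD of bright genes. Both were of mouse Tdo2 by the median over probe sets, at 0.21 for saline-treated mutant against WT and -0.09 for leptin against saline. Among the other breakdown genes, those 2-fold apart in saline-treated mutant against WT rats numbered 3 with the floor at the 25th percentile and 2 by the median over probe sets, against 1. In mice, scaling to a common median turned 2 higher and 3 lower into 4 and 1. In leptin-treated mutant against WT rats they numbered 5 with that floor and 4 with log2(signal + floor), against 2.

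Over all genes the floor set the counts. Genes 2-fold higher and lower in saline-treated mutant against WT numbered 294 and 142 in rats, 694 and 453 with the floor at the 25th percentile, and 112 and 74 at the 75th. In mice they numbered 533 and 443, 984 and 1341, and 267 and 198. For leptin against saline they were 23 and 27, 211 and 296, and 8 and 5 in rats, and 21 and 28, 408 and 436, and 5 and 4 in mice. For leptin-treated mutant against WT they were 276 and 157, 631 and 520, and 113 and 73 in rats, and 476 and 414, 922 and 1318, and 231 and 182 in mice. With log2(signal + floor) the saline counts were 182 and 94 in rats. Scaling to a common median moved the median mouse log2 ratio of saline-treated mutant against WT to 0.22, and the share of called genes that were higher to 80.4% (65.3% after quantile normalization), against 54.6%. For leptin-treated mutant against WT mice the share was 76.5% against 53.5%, and for leptin against saline in rats 59.2% against 46.0%.

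No paired analysis was possible because each group holds 1 array, and for the same reason leaving out a replicate was not possible. Variation between animals was not measured, each rat member rests on 1 probe set, and dim genes are limited by the floor.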

Other observations

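Among 13 measured amino acid transporters of the rat hepatocyte list, 2 were at least 2-fold lower and 0 higher in saline-treated mutants, with a median log2 ratio of -0.33. Slc16a10, a transporter of aromatic amino acids, had 365.4 in leptin-treated and 353.7 in saline-treated mutants against 1207.9 in WT rats, 3.42-fold lower with saline. Its brightest mouse probe set had 428.7 and 429.8 against 1232.5 in WT mice, 2.87-fold lower, while its other mouse probe sets reached a log2 ratio of up to 0.05. Slc43a1, a transporter of large neutral amino acids, had 513.9 and 372.0 in leptin-treated and saline-treated mutants against 995.3 in WT rats, 2.68-fold lower. In mice Slc3a1, a subunit of a cystine and dibasic amino acid transporter, was 2.34-fold lower, but not past 2-fold with a common median (log2 -0.97).

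Of 20 measured rat genes of glucagon and glucocorticoid action, 1 was at least 2-fold higher and 2 lower in saline-treated mutants. Their median log2 ratio was -0.14, with 12 below 0. Fkbp5, a target of the glucocorticoid receptor, had 965.0 in mutant against 333.9 in WT rats (2.89-fold higher) and was 2.5-fold higher in mutant mice. Igfbp1, which insulin lowers, had 5207.9 in mutant against 15767.9 in WT rats (3.03-fold lower), and Irs2, an adaptor of the insulin receptor, was 2.28-fold lower. The glucagon receptor Gcgr had 2356.7 in mutant against 1733.3 in WT rats, the glucocorticoid receptor Nr3c1 2573.9 against 3304.5, and Klf15, a factor that promotes amino acid breakdown, 4041.7 against 4815.4. Ppargc1a, a coactivator induced by fasting, had 128.5 in leptin-treated against 257.1 in saline-treated mutant rats, 2-fold lower as deposited and just under 2-fold under both other scalings (log2 -0.96 after quantile normalization and -0.94 with a common median).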
